A study of Mus musculus with 30 samples.

Results

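The genes described here are the members of the 4 mouse Hox clusters, taken as every gene of the deposited table whose symbol is Hox, a letter from a to d and a number. They are 39 of the 55291 genes in the table, with 11 in the Hoxa cluster, 10 in Hoxb, 9 in Hoxc and 9 in Hoxd. The study measured bulk RNA from tumours of 10 mouse cancer cell lines to ask which cancer types suit OK-432, a preparation of killed streptococci used to stimulate innate immunity. There were 3 libraries for each of MC38, MC38OVA, EMT6, LL2, CT26, CT26NYESO1, CMS5a, Renca, B16F1 and B16F10, 30 in all, and every library is labelled as CD45+ immune cells that had infiltrated a tumour. The labels' protocol describes RNA taken from suspensions of minced, enzyme-treated tumour and mentions no sort for CD45. MC38 and CT26 are known as colon carcinoma lines, EMT6 as mammary carcinoma, LL2 as Lewis lung carcinoma, CMS5a as fibrosarcoma, Renca as renal carcinoma and the B16 lines as melanoma; the labels do not spell out what OVA and NYESO1 add. The lines had been grown under the skin of BALB/cJ or C57BL/6J mice until the tumours measured 10 mm. The labels mention mice given OK-432 in the tumour for 24 hours and mice not given it, but tie neither treatment nor strain to a library, so lines cannot be told apart from strain or treatment. Nothing in the labels gives the age of the mice or says that the 3 libraries of a line came from separate mice.

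Hox genes encode homeodomain transcription factors that give cells a position along the body axis and along the limbs. Within a cluster they are numbered by paralog group, low numbers being used towards the head and high numbers towards the tail, the far limb and the urogenital tract, and neighbours in a cluster are usually active together. Adult tissues, fibroblasts above all, keep much of the Hox pattern of the place they come from, and immature blood cells use Hoxa and Hoxb genes that mature leukocytes largely switch off.

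Values are TPM, a transcript level per length scaled to a library total of 1000000, so levels can be set side by side between genes but sequencing depth is unknown. The CD45 label was checked against marker genes. All 10 leukocyte markers averaged 1 TPM or more in every line, with Ptprc, which encodes CD45, between 2.7 and 215 TPM in the 30 libraries. Markers of other cells were present too. The 7 melanocyte markers summed to 1694 to 7058 TPM in the B16F1 libraries and 9297 to 13415 TPM in B16F10, against at most 1.63 TPM in any library of the other lines, where Tyr was listed at 0 in 7 of the 8 line means. The 10 fibroblast markers had summed line means from 15.8 TPM in B16F10 to 4979 TPM in CMS5a, and the 7 epithelial markers from 0.994 TPM in B16F10 to 1732 TPM in Renca. Summed line means ran from 15.7 to 164 TPM for 7 endothelial markers and from 4.36 to 93.1 TPM for 6 muscle and fat markers. Transcripts typical of cells without CD45 were thus present, and their part in any Hox level below was not tested. In such bulk RNA, fewer cells of a type and less RNA per cell cannot be told apart.

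A gene was called on in a line when all 3 libraries reached 1 TPM. By that rule 33 of the 39 genes were on in at least 1 line, and 163 of the 390 combinations of gene and line were on. The Hoxa cluster was the most widely used, with 71 of 110 combinations on (64.5%), followed by Hoxb with 37 of 100, Hoxc with 28 of 90 (31.1%) and Hoxd with 27 of 90 (30%). Hoxa3, Hoxa5, Hoxa7 and Hoxa10 were on in all 10 lines. At the other end, Hoxd3 was on only in LL2, Hoxd11 only in Renca and Hoxc11 only in CMS5a. The 6 genes on in no line were Hoxa13, Hoxb1, Hoxc12, Hoxc13, Hoxd1 and Hoxd12. Of these, Hoxb1, which marks a segment of the embryonic hindbrain, was listed at 0 in all 30 libraries. Hoxa13 still reached 1.13, 1.33 and 0.904 TPM in MC38, and Hoxc12 reached 1.15, 0.890 and 0.929 TPM in CMS5a. Here and below, 3 values in a row are replicates 1, 2 and 3 of a line. By position, paralog group 7 was on in 15 of 20 combinations, group 5 in 19 of 30, group 13 in 6 of 40 and group 12 in 0 of 20.

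**Figure D1:**
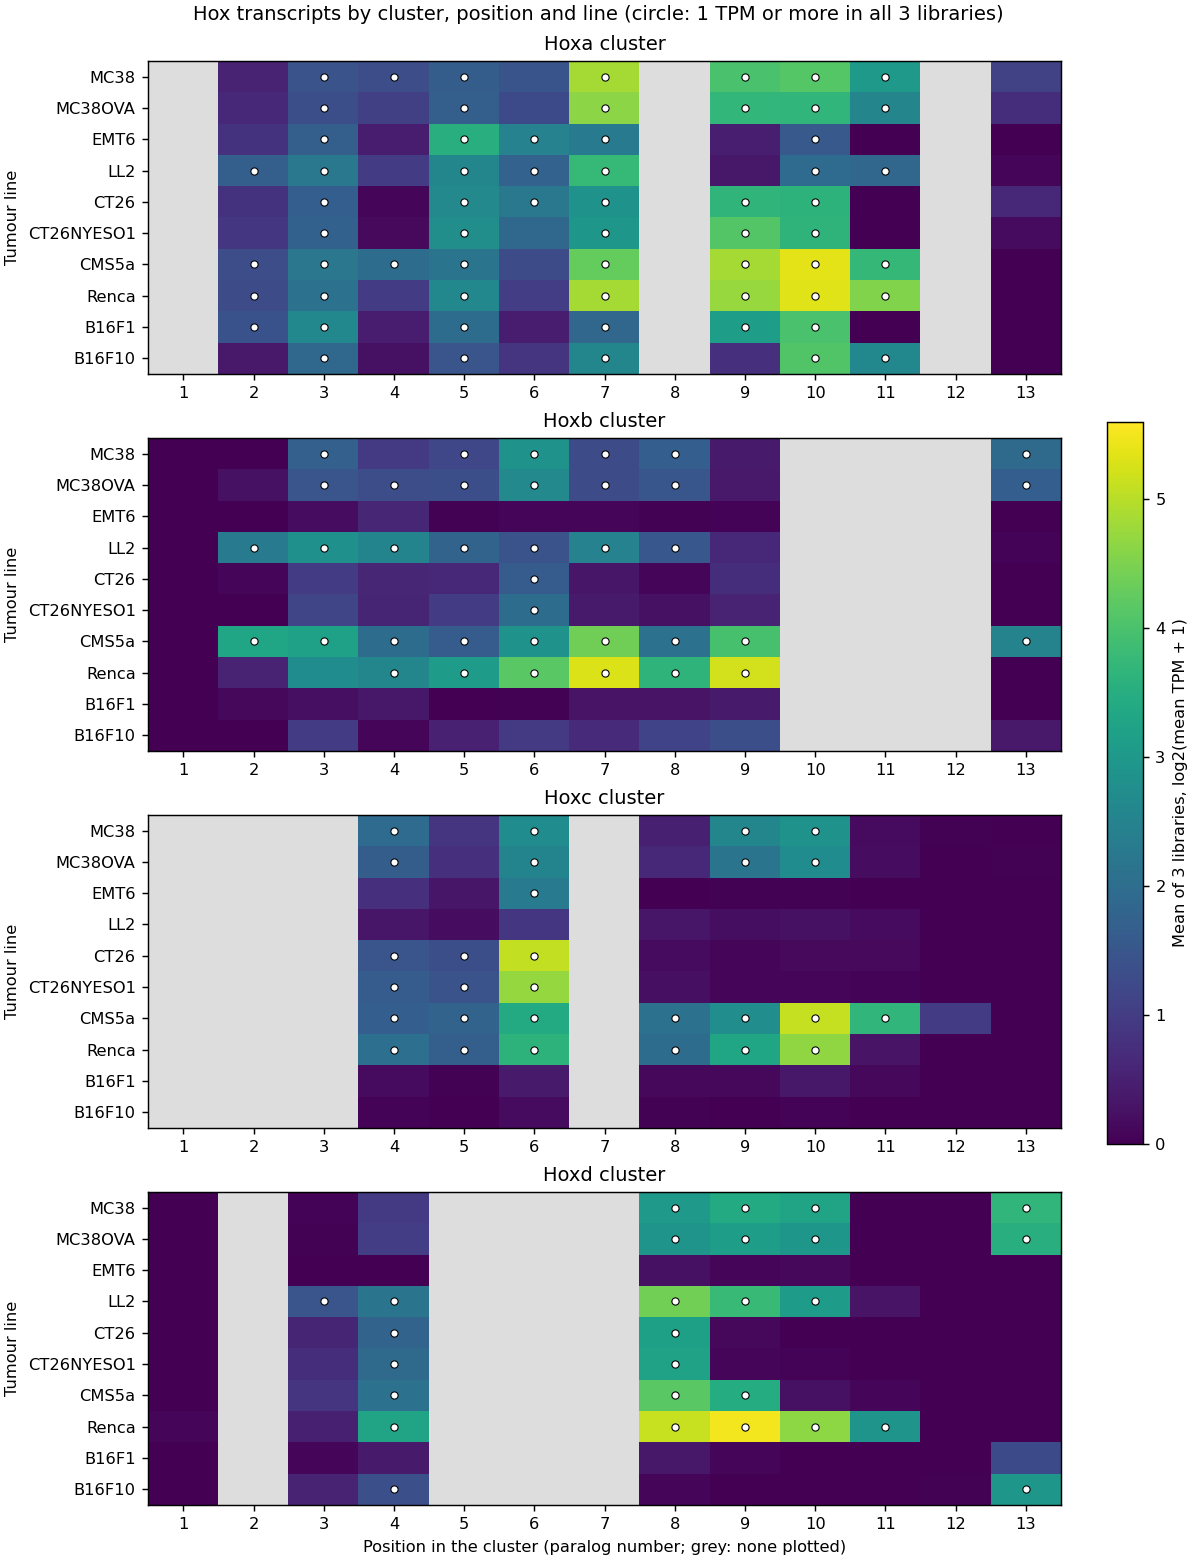
Line means of Hox genes as colour, log2(mean TPM + 1), with the 4 clusters as panels, the 13 positions across and the 10 lines down. White circles mark genes at 1 TPM or more in all 3 libraries, and grey columns mark positions without a plotted gene; Hoxd13 carries circles in MC38, MC38OVA and B16F10 with dark cells at Hoxd11 and Hoxd12.

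The lines used very different numbers of these genes. CMS5a had 28 on and Renca 25, in all 4 clusters. MC38 and MC38OVA had 22 each, LL2 had 19, CT26 had 13 and CT26NYESO1 had 12. EMT6 (7 on), B16F1 (7 on) and B16F10 (8 on) used the Hoxa cluster almost alone. Outside Hoxa, EMT6 had only Hoxc6 on, B16F1 had none and B16F10 had Hoxd4 and Hoxd13. Summed over the 39 genes, the level was 410, 444 and 411 TPM in Renca and 283, 304 and 272 TPM in CMS5a. It was 38.1, 38.6 and 35.5 TPM in EMT6 and 56.6, 38.5 and 37.7 TPM in B16F1. The Renca and CMS5a sums lay above those of every other library, the highest of which was 180 TPM in MC38.

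**Figure D2:**
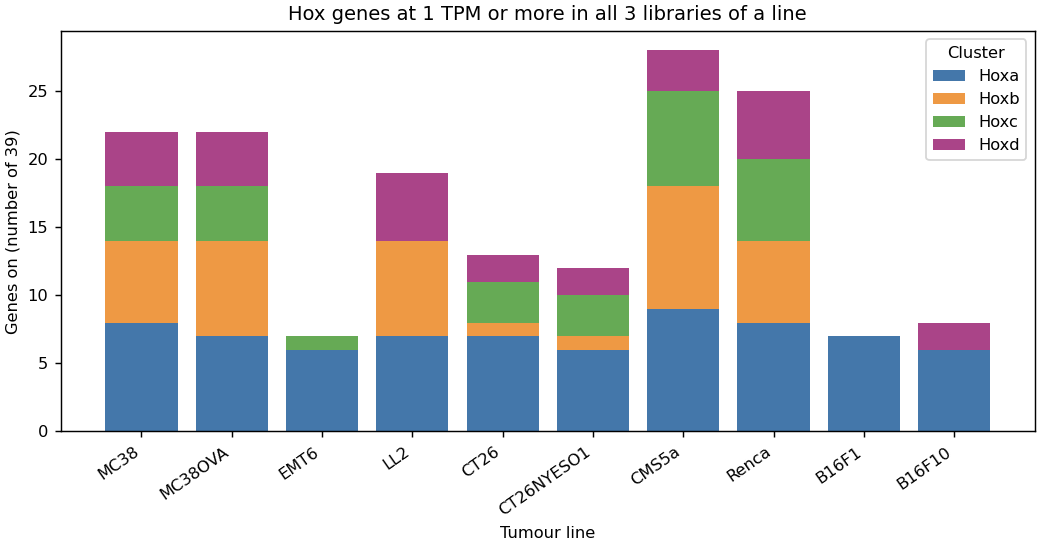
Number of Hox genes on in each of the 10 lines (bar height, of 39), split by cluster; on means 1 TPM or more in all 3 libraries. CMS5a (28) and Renca (25) have the tallest bars, and EMT6, B16F1 and B16F10 (7, 7 and 8) consist mostly of Hoxa genes.

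Some calls sat close to the 1 TPM level. Just below it were Hoxb3 in Renca, whose lowest library had 0.976 TPM, Hoxa6 in MC38OVA (lowest 0.990 TPM) and Hoxa6 in CT26NYESO1 (lowest 0.990 TPM). Just above it were Hoxa2 in B16F1 and in Renca (lowest library 1.01 TPM each) and Hoxb6 in LL2 (lowest 1.01 TPM). The Renca case came from replicate 1 alone. In it Hoxb3 was at 0.976 TPM against 8.44 and 7.50 TPM in the other two libraries, and Hoxa6 at 0.135 TPM against 1.48 and 1.43 TPM. The antisense transcript Hoxb3os, which shares 2250 exon bases with Hoxb3, had 4.84, 0.907 and 0.695 TPM in Renca. Whether the counting kept reads of Hoxb3 and Hoxb3os apart is not known, so this Hoxb3 value is uncertain.

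The Hoxd cluster had clear edges between genes that were on and neighbours that were not. It lies on chromosome 2 (mm10, the build named in the submitters' processing notes), with Hoxd13 at its outer end (chr2:74668310-74671599) and Hoxd1 at the other (chr2:74762980-74765142), all on the plus strand. Hoxd9, a paralog group 9 gene used in the forelimb and lower trunk, had the highest line mean of any Hox gene, 44.0 TPM ± 8.1 (SD, n = 3) in Renca. Its Renca libraries had 53.4, 39.3 and 39.4 TPM. LL2 followed with 15.4, 11.7 and 11.1 TPM, MC38 with 11.6, 11 and 6.64 TPM, CMS5a with 9.22, 10.2 and 10.7 TPM and MC38OVA with 7.98, 7.92 and 6.96 TPM. Every Renca library stood above all others, and the 4 lines that followed were not all separate from each other. The remaining 5 lines had line means of at most 0.0850 TPM, so that the gene was either plainly present or near 0.

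Sequence just upstream of the starts is shown for 4 Hoxd genes: Hoxd13, present in lines that lack its neighbours, Hoxd11, on in 1 line, and Hoxd9 and Hoxd8, the strongest of the cluster. Hoxd9, Hoxd8 and Hoxd11 were taken by rule, and Hoxd13 was added after its values were seen. Hoxb9, Hoxc11 and Hoxd3 also met the rule but are not printed. The former pair had no promoter entry, and the Hoxd3 stretch overlaps a protein-coding exon. The stretches come from RefSeq promoter entries on GRCm38.p6, run 5′ to 3′ on the plus strand and cover bases 250 to 51 before each listed start (200 bases). Capitals mark 3 motifs searched on both strands. CCAAT is a box bound by NF-Y and GGGCGG a box bound by Sp1. The form TGATNNAT is bound by Pbx together with Hox proteins. Matches on the minus strand appear as the reverse complement. Overlapping GGGCGG matches were counted separately.
Hoxd13, chr2:74667975-74668174: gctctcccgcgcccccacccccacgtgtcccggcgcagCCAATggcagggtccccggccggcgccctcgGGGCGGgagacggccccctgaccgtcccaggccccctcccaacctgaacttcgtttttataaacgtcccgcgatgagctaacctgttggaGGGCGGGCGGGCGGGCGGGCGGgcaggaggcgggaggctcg
Hoxd11, outer start, chr2:74679308-74679507: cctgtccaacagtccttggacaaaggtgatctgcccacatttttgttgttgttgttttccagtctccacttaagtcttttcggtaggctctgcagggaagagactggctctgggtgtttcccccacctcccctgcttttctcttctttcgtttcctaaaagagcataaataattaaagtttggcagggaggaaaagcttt
Hoxd11, inner start, chr2:74682073-74682272: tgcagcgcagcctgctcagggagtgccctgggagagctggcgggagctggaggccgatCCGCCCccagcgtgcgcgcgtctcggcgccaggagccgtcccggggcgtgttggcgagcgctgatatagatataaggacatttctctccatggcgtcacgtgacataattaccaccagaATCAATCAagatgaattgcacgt
Hoxd9, chr2:74697513-74697712: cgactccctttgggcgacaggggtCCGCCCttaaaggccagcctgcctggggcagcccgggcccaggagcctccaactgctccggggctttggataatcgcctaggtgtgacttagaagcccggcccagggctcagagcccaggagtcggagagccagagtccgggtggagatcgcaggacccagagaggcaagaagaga
Hoxd8, chr2:74704365-74704564: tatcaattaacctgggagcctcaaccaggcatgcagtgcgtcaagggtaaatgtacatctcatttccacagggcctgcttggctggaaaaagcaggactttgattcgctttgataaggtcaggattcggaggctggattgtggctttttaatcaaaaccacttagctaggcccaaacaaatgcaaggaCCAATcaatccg

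The Hoxd13 stretch held 23 CG pairs, more than 93.5% of the 32851 such stretches in the table, and 6 matches to GGGCGG. Such counts were not particular to it. The stretch of Hoxa13, a gene on in no line, held 26 CG pairs, and that of Hoxa6 held 22 with 5 matches to GGGCGG. The inner Hoxd11 stretch held 18 CG pairs and the outer one 2, against a median of 4 over the whole table. Promoter entries were matched for 22 of the 39 Hox genes, some with a second start, giving 24 stretches with a median of 11 CG pairs. CCAAT was in 11 of these 24 and in 28.4% of the whole table, GGGCGG in 9 and 24.6%, and TGATNNAT in 3 and 6.44%. A match describes letters in these windows and does not show a bound site. The Hoxd9 stretch overlaps exons of the noncoding gene Gm28793.

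Hoxd13, which shapes digits and the hindgut and genital region, was the clearest case of a gene on without its neighbours. It had 12.8, 14.1 and 8.6 TPM in MC38 and 12.3, 11.1 and 8.56 TPM in MC38OVA. B16F10 had 9.31, 5.49 and 5.70 TPM and B16F1 had 2.11, 0.941 and 1.08 TPM. All other libraries were at or under 0.0189 TPM. MC38, MC38OVA and B16F10 were therefore on, B16F1 lay between them and the rest, and the other 6 lines were at or next to 0. In the same 4 lines Hoxd12, the gene next to it, reached at most 0.0697 TPM in any library and Hoxd11 at most 0.0388 TPM. Farther in, MC38 and MC38OVA again had Hoxd10, Hoxd9 and Hoxd8 on, whereas both B16 lines had these 3 genes under 0.5 TPM in every library.

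Hoxd11, which acts with Hoxa11 in the forearm and the developing kidney, was on in Renca alone, with 7.25, 5.40 and 6.87 TPM. The highest library elsewhere was in LL2, at 0.256 TPM, so the groups did not overlap. Hoxd10, a lower trunk and hindlimb gene, had 22.4, 27.7 and 22.0 TPM in Renca, 9.92, 8.84 and 7.21 TPM in MC38, 7.14, 7.80 and 5.64 TPM in MC38OVA and 8.24, 7.60 and 6.46 TPM in LL2. Renca stood clear of the other 3, which overlapped each other. In CMS5a Hoxd10 was at 0.134, 0.0571 and 0.359 TPM although Hoxd9 beside it was on.

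Hoxd8 was on in 7 lines, with line means of 33.8 TPM ± 5.0 in Renca, 20.3 ± 3.9 in LL2, 17.0 ± 1.6 in CMS5a, 8.38 ± 0.98 in CT26NYESO1, 8.04 ± 1.6 in CT26, 7.21 ± 1.1 in MC38 and 6.45 ± 0.60 in MC38OVA (SD, n = 3 each). Renca was apart from the rest, LL2 and CMS5a overlapped, and so did neighbours in order among the last 4, although CT26NYESO1 lay above MC38OVA. CT26 and CT26NYESO1 stopped there, since Hoxd9 and Hoxd10 were at 0.115 TPM or less in all their libraries. Hoxd4 had its highest mean in Renca (8.65 TPM ± 2.3) and was also on in LL2 (3.48), CMS5a (3.27), CT26NYESO1 (2.84), CT26 (2.43) and B16F10 (1.57). Hoxd3, needed for the upper neck vertebrae, was on in LL2 with 1.49, 2.04 and 1.77 TPM, just above the highest other library, 1.26 TPM in CMS5a. Hoxd3 and Hoxd4 share 388 exon bases on the same strand and both share 347 with the antisense transcript Hoxd3os1, so their values are uncertain. At the inner end Hoxd1 never passed 0.133 TPM.

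**Figure D3:**
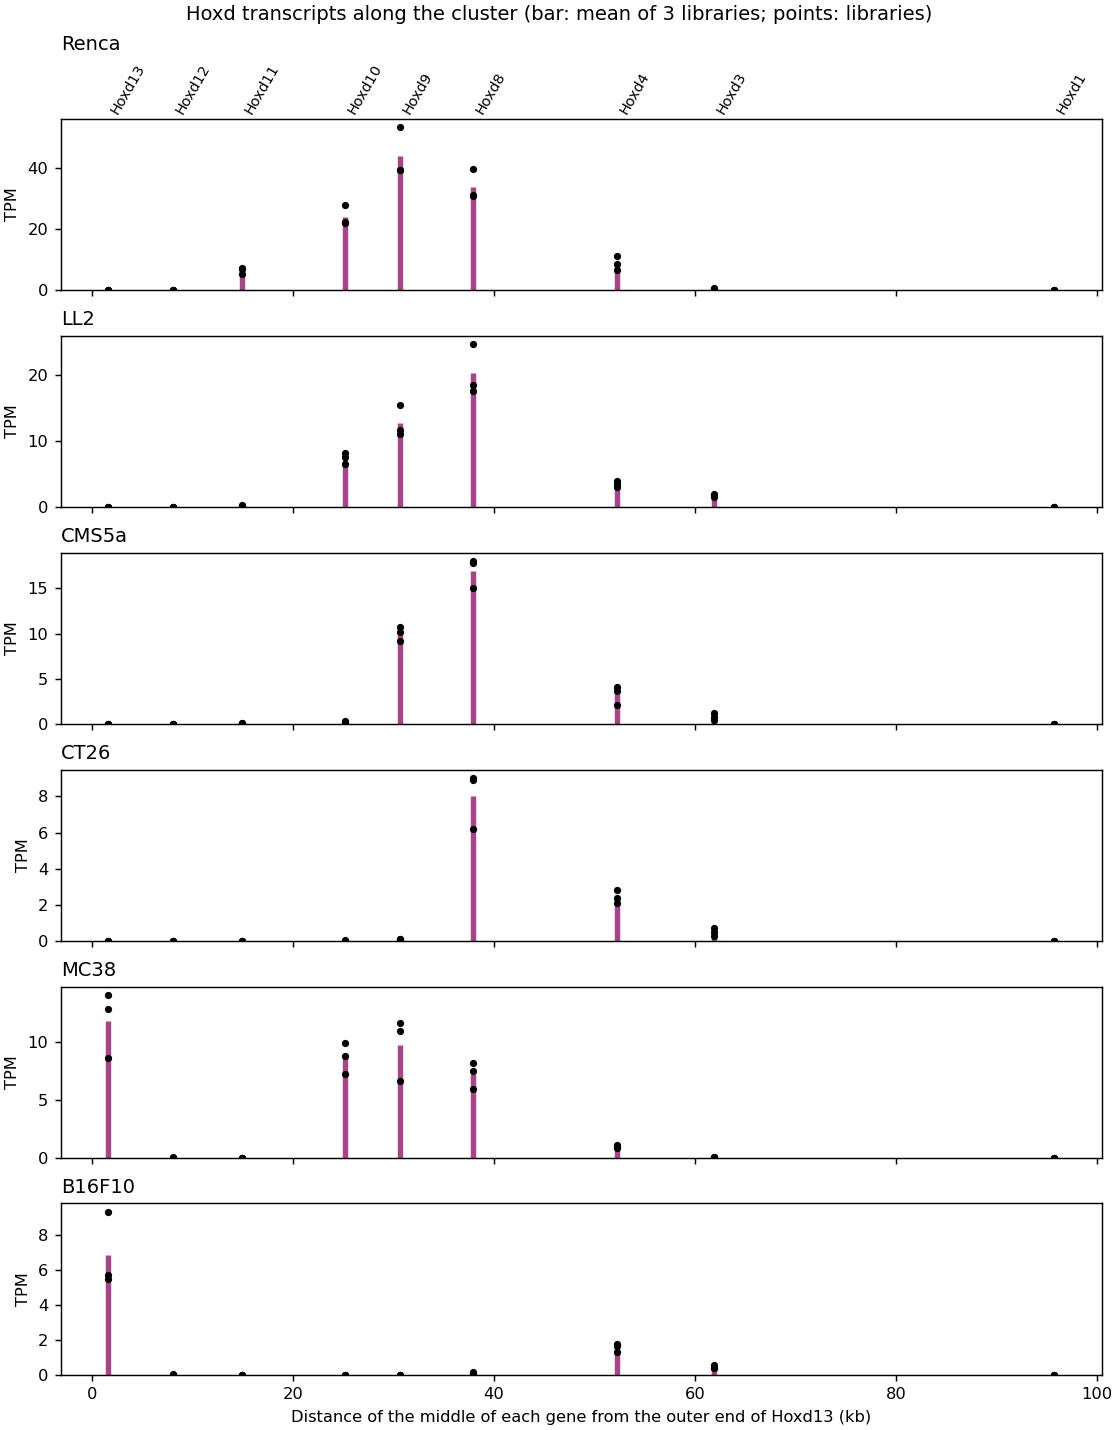
TPM of the 9 Hoxd genes in 6 lines, plotted by the distance of each gene's middle from the outer end of Hoxd13 (kb); bars are means of 3 libraries, points are libraries, and each panel has its own scale from 0. The filled stretch runs from Hoxd11 to Hoxd4 in Renca, from Hoxd10 to Hoxd3 in LL2, and ends at Hoxd9 in CMS5a and at Hoxd8 in CT26; MC38 and B16F10 have Hoxd13 with empty places at Hoxd12 and Hoxd11.

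The Hoxa cluster, on chromosome 6, was on in every line, with 6 to 9 of its 11 genes. Hoxa10, known from the lower spine and the uterus, was the most abundant Hox gene in CMS5a (47.6, 38.6 and 34.8 TPM) and in both B16 lines. Renca had 24.6, 47.6 and 45 TPM, and B16F10 had 20, 13.1 and 14.3 TPM. EMT6 was lowest, with 2.14, 1.62 and 2.09 TPM, below LL2 with 3.08, 3.41 and 2.21 TPM. CMS5a and Renca lay above all other libraries and overlapped each other.

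Hoxa9, which drives self-renewal in immature blood cells and many leukaemias, separated lines that otherwise had similar Hoxa genes. It had 31.0, 28.7 and 24.1 TPM in CMS5a and 24.2, 27.1 and 25.9 TPM in Renca. CT26NYESO1 had 16.1, 15.7 and 16.8 TPM, and MC38, MC38OVA and CT26 had means of 14.9, 12 and 11.6 TPM. It was at 0.266, 0.267 and 0.303 TPM in LL2 and at 0.274, 0.608 and 0.282 TPM in EMT6, between neighbours Hoxa7 and Hoxa10 that were on in both. The 6 markers of immature blood cells had their highest summed line mean in CT26 (791 TPM, of which Cd34 gave 762) and 27.0 TPM in Renca, with Mpo at 0.0326 TPM or less in every line mean. Their part in the Hoxa9 levels was not tested.

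Hoxa11, a forearm, kidney and uterus gene, was either on or at 0. Renca had 19.6, 23.0 and 23.8 TPM and CMS5a had 11.2, 13.5 and 12 TPM. MC38, MC38OVA, B16F10 and LL2 had means of 7.13, 4.87, 5.12 and 2.61 TPM. It was listed at 0 in all libraries of EMT6, CT26 and CT26NYESO1, and B16F1 had 0.0217 TPM in 1 library and 0 in the others. Its antisense neighbour Hoxa11os was present in the same 6 lines, with 29.8, 16.5 and 16.5 TPM in Renca, and listed at 0 in EMT6, CT26, CT26NYESO1 and B16F1. The 2 genes share 800 exon bases on opposite strands; the kit keeps strand, but whether the counting used it is not known, so reads of the 2 cannot be told apart with certainty.

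Hoxa7 led in MC38 (30.8, 31.6 and 20.9 TPM) and MC38OVA (21.2, 27.5 and 22.6 TPM). Renca was in the same range, with 35.7, 25.3 and 22.3 TPM, and B16F1 was lowest, with 2.41, 2.89 and 2.43 TPM. Hoxa5, a lung and neck gene, led in EMT6 with 11.7, 10.0 and 9.57 TPM, above every other library, the next being 6.35 TPM in Renca. Hoxa6 was on in EMT6 (4.56 TPM ± 0.50), CT26 (3.77 ± 0.74) and LL2 (2.39 ± 0.25). EMT6 thus had its strongest Hox transcript at Hoxa5, whereas the strongest Hoxa gene of the other 9 lines was Hoxa7, Hoxa9 or Hoxa10.

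Among the remaining Hoxa genes, Hoxa3, needed for the thymus, was on throughout with line means from 1.52 TPM in MC38OVA to 5.11 TPM in B16F1. Hoxa2, which sets the identity of the second pharyngeal arch, was on in LL2 (2.24 TPM), B16F1 (1.65), CMS5a (1.49) and Renca (1.44), all within each other's range except that the LL2 libraries lay above those of CMS5a and Renca. Hoxa4 was on in CMS5a (2.97 TPM ± 0.28) and MC38 (1.5 ± 0.35), and in CT26 its 3 libraries were at 0.0127, 0.0808 and 0.0656 TPM. Hoxa3 shares 503 exon bases with the antisense transcript Hoxaas2 and 297 with Hoxaas3. Hoxa7 shares 586 with Hoxaas3, so the values of Hoxa3 and Hoxa7 carry the uncertainty given for Hoxa11.

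**Figure D4:**
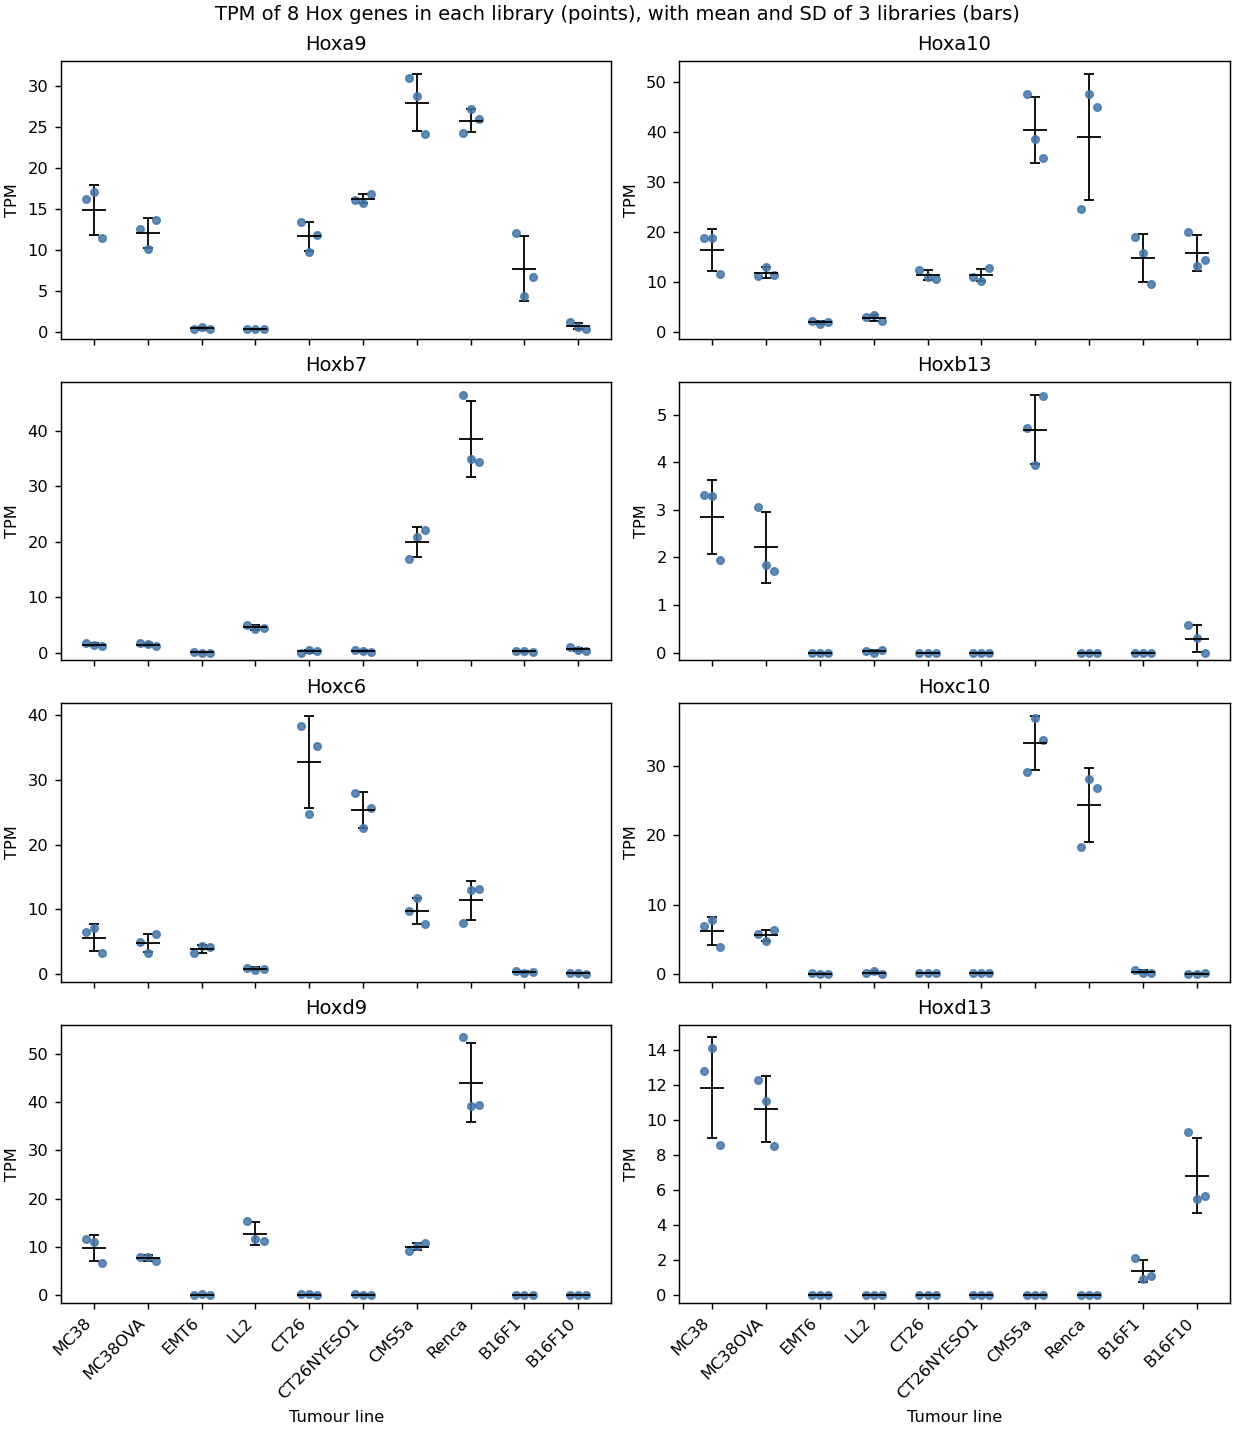
TPM of 8 Hox genes in each of the 30 libraries (points, replicates 1 to 3 from left to right), with the mean (long bar) and SD (capped line) of the 3 libraries per line; each panel has its own linear scale. Hoxc6 is highest in CT26 and CT26NYESO1, Hoxc10 in CMS5a and Renca, Hoxb7 and Hoxd9 in Renca, and Hoxd13 is present only in the MC38 and B16 lines.

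The Hoxb cluster, on chromosome 11, was on from Hoxb2 to Hoxb13 in CMS5a (9 of 10 genes) and from Hoxb4 to Hoxb9 in Renca. LL2 had Hoxb2 to Hoxb8 on, the MC38 lines had Hoxb3 to Hoxb8 (without Hoxb4 in MC38) and Hoxb13, the CT26 lines had Hoxb6 alone, and EMT6, B16F1 and B16F10 had none. Hoxb7, which marks the ureteric bud of the kidney, had 46.4, 34.8 and 34.3 TPM in Renca. CMS5a had 17.0, 20.8 and 22.2 TPM and LL2 5.04, 4.21 and 4.46 TPM, and these 3 lines did not overlap. The MC38 lines averaged 1.45 and 1.47 TPM.

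Hoxb9, a thoracic spine gene, had 30.2, 38.3 and 40.8 TPM in Renca and 13.7, 15.6 and 14.4 TPM in CMS5a. No other library passed 2.7 TPM, the value of replicate 1 of B16F10. Hoxb8, used in myeloid progenitors and the trunk, was highest in Renca (10.7, 13.4 and 10.6 TPM) and on in CMS5a (3.23 TPM), MC38 (2.18), LL2 (1.85) and MC38OVA (1.81). Hoxb6 had 16.2, 19.8 and 15 TPM in Renca and was on in 7 lines, down to 1.69 TPM in LL2. Hoxb5 had 8.45, 8.11 and 5.96 TPM in Renca, with LL2 (2.44 TPM), CMS5a (2.09), MC38OVA (1.53) and MC38 (1.28) also on. From Hoxb5 to Hoxb9, each gene was higher in every Renca library than in any library of another line. Hoxb5 shares 100 exon bases with the antisense transcript Hoxb5os, which had 17.7, 11.5 and 12.7 TPM in Renca, so its values are uncertain.

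Towards the head side the order of lines changed. Hoxb2, a hindbrain gene, was on in CMS5a (8.63, 9.56 and 8.01 TPM) and LL2 (4.79, 2.98 and 3.83 TPM) and at most 0.816 TPM in any Renca library. Hoxb3 was on in CMS5a (8.25 TPM ± 2.0), LL2 (5.98 ± 0.30), MC38 (2.27 ± 0.67) and MC38OVA (1.80 ± 0.45). Renca averaged 5.64 TPM ± 4.1 but was not on, through its replicate 1. Hoxb4, known for expanding blood stem cells, was on in Renca (4.96 TPM), LL2 (4.73), CMS5a (2.96) and MC38OVA (1.52), with Renca and LL2 overlapping. Hoxb3 shares 2250 exon bases with the antisense transcript Hoxb3os, and Hoxb2 shares 953, so the values of both are uncertain.

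Hoxb13, which is used in the tail end of the body and the prostate, was on in CMS5a (4.72, 3.95 and 5.39 TPM), MC38 (3.31, 3.28 and 1.95 TPM) and MC38OVA (3.06, 1.85 and 1.72 TPM). B16F10 had 0.586, 0.309 and 0 TPM, and all libraries of EMT6, CT26, CT26NYESO1, Renca and B16F1 were at 0. In the MC38 lines Hoxb9, the next gene towards the head, stayed at 0.432 TPM or less, so Hoxb13 was on across a gap there, as Hoxd13 was. Between Hoxb13 and Hoxb9 lies the microRNA gene Mir196a-1, whose entry in the table had 15.1, 23.2 and 14.1 TPM in CMS5a and 3.91, 12.1 and 8.07 TPM in Renca. It was at 0 in all but 2 of the other libraries, of which the higher had 0.308 TPM. These are the lines with Hoxb9 on; the value reflects polyadenylated RNA over that locus and not the mature microRNA. RefSeq gives mature miR-196a-5p at chr11:96265187-96265208 and mature miR-196b-5p at chr6:52230129-52230150, beside Hoxa9 and Hoxa10, and the 2 share their seed, bases 2 to 8, shown in capitals.
miR-196a-5p: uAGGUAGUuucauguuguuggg
miR-196b-5p: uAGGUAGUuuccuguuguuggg

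The Hoxb8 transcript carries after its coding part a stretch that pairs with miR-196a-5p at 21 of its 22 bases, a well known site at which this microRNA cuts Hoxb8 mRNA. It is shown because Hoxb8 was measured in both lines with the Mir196a-1 entry present; the capital marks the base without a Watson-Crick partner.
Hoxb8 site, transcript bases 2208 to 2229: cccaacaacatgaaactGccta

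In Renca Hoxb8 averaged 11.6 TPM between Hoxb7 at 38.5 and Hoxb9 at 36.4, and in CMS5a 3.23 TPM between 20 and 14.6. In LL2, where that entry was at 0 in 2 libraries, it averaged 1.85 TPM, with Hoxb7 at 4.57 and Hoxb9 at 0.552. Whether the microRNA bears on these levels was not tested.

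The Hoxc cluster, on chromosome 15, was on most fully in CMS5a (7 of 9 genes, Hoxc4 to Hoxc11) and Renca (6 genes, Hoxc4 to Hoxc10), in part in the MC38 lines (Hoxc4, Hoxc6, Hoxc9 and Hoxc10), only at its head side in the CT26 lines (Hoxc4, Hoxc5 and Hoxc6), at Hoxc6 alone in EMT6, and in no gene in LL2, B16F1 and B16F10. Hoxc6, a thoracic and mammary gene, was the most abundant Hox transcript of CT26 (38.3, 24.8 and 35.2 TPM) and CT26NYESO1 (28.0, 22.5 and 25.6 TPM). Renca had 7.93, 13 and 13.2 TPM and CMS5a 9.70, 11.8 and 7.78 TPM. MC38, MC38OVA and EMT6 had means of 5.6, 4.80 and 3.94 TPM. The CT26 lines overlapped each other and lay above every other library.

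Hoxc10, a lumbar and hindlimb gene, had 29.1, 36.9 and 33.8 TPM in CMS5a, 18.3, 28.1 and 26.9 TPM in Renca, 6.97, 7.81 and 3.90 TPM in MC38 and 5.72, 4.77 and 6.35 TPM in MC38OVA. No library of the other 6 lines passed 0.534 TPM. In the CT26 lines the step from Hoxc6 to Hoxc9 was large, from 32.7 to 0.0603 TPM in CT26. Hoxc9 was on in Renca (8.86 TPM), CMS5a (5.74), MC38 (4.91) and MC38OVA (3.47), where only CMS5a and MC38 overlapped. Hoxc11, a hindlimb gene, was on in CMS5a with 10.5, 13.4 and 12 TPM, and the highest library elsewhere was 0.418 TPM in Renca. CMS5a thus went 1 gene farther to the tail side than Renca in Hoxc, and Renca farther than CMS5a in Hoxd.

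Hoxc8 was on in CMS5a (3.34 TPM ± 0.46) and Renca (2.95 ± 1.2), which overlapped. Hoxc5 was on in CMS5a (2.42 TPM), Renca (2.24), CT26NYESO1 (1.69) and CT26 (1.53), and Hoxc4 in Renca (3.15), MC38 (2.86), CMS5a (2.19), MC38OVA (2.16), CT26NYESO1 (2.08) and CT26 (1.77). Hoxc5 and Hoxc10 share 166 exon bases in the gene models. Hoxc13, a hair follicle gene, reached at most 0.0518 TPM in any library.

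Neighbouring genes of a cluster had similar profiles over the lines, with exceptions at the gaps just described. As a description over 10 line means of the tested genes, on the log2(TPM + 1) scale and with lines sharing origin, the 28 neighbour pairs had a median Pearson r of 0.79. It was 0.53 for 33 pairs at the same position in different clusters, 0.35 for 95 pairs farther apart in a cluster and 0.38 for 372 other pairs. The closest neighbours were Hoxc9 and Hoxc10 (r = 0.97) and Hoxb7 and Hoxb8 (r = 0.92). Hoxb9 and Hoxb13 (r = 0.19) and Hoxa4 and Hoxa5 (r = -0.28) were among the least alike.

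Differences were tested with limma on log2(TPM + 1) over the 17944 genes with 1 TPM or more in at least 3 libraries, with Benjamini-Hochberg adjustment over these genes. A call needed an adjusted p under 0.05 and a difference of at least 1 on the log2 scale. Of the Hox genes 33 passed the filter, the same 33 that were on somewhere, and all 33 were called as differing over the 10 lines, against 85.5% of all genes tested. A gene that passed the filter only through the lines in which it was high had to differ, so nothing is read from that count. Fold changes below are differences of log2(TPM + 1), which understate the change of low genes, and each line is set against the mean of the other 9, so these comparisons share libraries.

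In Renca 20 of the 33 genes were called higher, against 12.4% of all genes, and 1 lower, against 10.5%. Hoxb9 was higher by 4.29 ± 0.14 (log2, SE; limma, adjusted p = 5.1e-20), Hoxb7 by 4.05 ± 0.14 (1.8e-19), Hoxd9 by 3.91 ± 0.13 (1.1e-19) and Hoxd10 by 3.56 ± 0.11 (1.4e-20). The 20 lay in all 4 clusters at positions 3 to 11, and the gene called lower was Hoxd13. Hoxd11, among the 20, passed the filter only through its Renca libraries, so nothing is read from its call. Of the 20, Hoxb3 in Renca (1.03 ± 0.26) lost its call when replicate 2 or replicate 3 of Renca was left out, and Hoxb3 and Hoxc6 lost theirs without the B16 lines. Markers of other cells were called higher in Renca too, 6 of 7 epithelial, 4 of 7 endothelial and all 3 tested muscle and fat markers, and their part in the Hox calls was not tested.

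In CMS5a 17 genes were called higher (background 9.23%) and 2, Hoxd10 and Hoxd13, lower (4.49%). Hoxc10 was higher by 3.86 ± 0.14 (limma, adjusted p = 4.8e-18), Hoxb7 by 3.04 ± 0.14 (2.7e-16), Hoxb2 by 2.92 ± 0.11 (3.5e-18) and Hoxb9 by 2.89 ± 0.14 (8.3e-16). Hoxc11, also among the 17 and higher by 3.57 ± 0.09, passed the filter only through its CMS5a libraries, so nothing is read from its call. Hoxb6 and Hoxc5 lost their calls under median-ratio scaling or without the B16 lines. Fibroblast markers were called higher in 7 of 10 and endothelial markers in 6 of 7. Whether the cells behind these markers carry the Hox transcripts was not tested.

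MC38 had 10 genes called higher (background 8.24%) and MC38OVA had 7 (10.2%), and in both the 1 gene called lower was Hoxb9 (4.06% and 3.59%). Hoxd13 was higher by 2.80 ± 0.14 in MC38 (limma, adjusted p = 2.3e-15) and by 2.66 ± 0.14 in MC38OVA (9.2e-15). Hoxd10 was higher by 2.03 ± 0.11 and 1.70 ± 0.11. The genes called higher in both lines were Hoxa7, Hoxb13, Hoxc9, Hoxc10, Hoxd9, Hoxd10 and Hoxd13; MC38 added Hoxa9, Hoxa11 and Hoxb6. When both B16 lines were left out of the lines compared, an alternative chosen after seeing the data, MC38OVA lost the calls of Hoxa7, Hoxc9, Hoxc10 and Hoxd9, and MC38 those of Hoxa9, Hoxb6 and Hoxc10. Hoxb13 in MC38OVA was also lost without replicate 1 of that line, Hoxb6 in MC38 without its replicate 1 or under median-ratio scaling, and Hoxa9 in MC38 under that scaling or without replicate 2 of all lines.

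LL2 had 7 higher (7.98%) and 6 lower (6.53%). The higher genes were Hoxb2 to Hoxb4, Hoxd3 and Hoxd8 to Hoxd10, led by Hoxd9 at 2.01 ± 0.13 (limma, adjusted p = 8.5e-13). Hoxd3 would not have passed the filter without its LL2 libraries, so nothing is read from its call. The lower ones were led by Hoxa9 at -2.89 ± 0.17 (2.1e-13) and included Hoxa10, Hoxc6, Hoxc9, Hoxc10 and Hoxd13, of which Hoxc9 was lost without replicate 3 of LL2. CT26 had 1 higher (8.25%) and 8 lower (4.91%), and CT26NYESO1 2 higher (6.84%) and 8 lower (5.71%). In both, the lower genes were Hoxa11, Hoxb7, Hoxb8, Hoxc9, Hoxc10, Hoxd9, Hoxd10 and Hoxd13. Hoxc6 was higher by 2.76 ± 0.18 in CT26 (limma, adjusted p = 1e-12) and by 2.39 ± 0.18 in CT26NYESO1 (2.8e-11), where Hoxa9 was also called, at 1.28 ± 0.17. Hoxb8 in CT26NYESO1 was lost without replicate 2 of that line.

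EMT6 had 3 higher (10.2%), among them Hoxa5 and Hoxa6 on the head side, and 17 lower (4.70%), which spanned all 4 clusters. Hoxa9 in EMT6 was lower, at -2.77 ± 0.17 (limma, adjusted p = 4e-13), and Hoxd8 at -2.69 ± 0.13 (2.9e-15). B16F1 had 0 higher (8.52%) and 17 lower (13.2%). B16F10 had 1 higher, Hoxd13 at 2 ± 0.14 (limma, adjusted p = 1e-12; background 5.28%), and 12 lower (23.2%). Some calls rested on single libraries or on scaling. The call of Hoxa6 in EMT6 was lost without the B16 lines. In B16F1, Hoxa6 was lost without its replicate 3, Hoxb9 without replicate 1 of all lines, and Hoxb8 without replicate 2 of B16F1 or MC38 or replicate 1 of MC38OVA or LL2. In B16F10, Hoxa7, Hoxb6 and Hoxb7 were lost under median-ratio scaling, the former pair also without its replicate 2 and Hoxb7 without its replicate 3. Both B16 lines had fewer fibroblast transcripts: 8 of 10 markers were called lower in B16F1 and 10 of 10 in B16F10. Leukocyte markers were called lower in 10 of 10 and 9 of 10, and the remaining 1 in B16F10 was called higher. In EMT6, whose Hox sums were also low, 6 of 10 fibroblast markers were called higher and 2 lower, with a summed line mean of 2112 TPM. Renca, with the highest Hox sums, had 772 TPM. The part of these markers in the Hox levels was not tested.

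TPM shares are set by all transcripts together. Rescaling each library by its median ratio moved the median log2 difference of all genes by 0.50 for B16F10 against the other lines and by 0.33 for B16F10 against B16F1. Higher and lower calls over all genes went from 948 and 4158 to 1831 and 2659 in the former, and from 813 and 2937 to 1477 and 2091 in the latter. No Hox call changed direction.

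Related lines shared most of the genes that were on, but so did some unrelated lines. MC38 and MC38OVA shared 21 genes that were on, 95.5% of each set. MC38 and CMS5a shared 20, which is 90.9% of the MC38 set, and all 12 genes of CT26NYESO1 were also on in CMS5a and in Renca. With 28 of the 39 genes on in CMS5a and 25 in Renca, large shares can follow from set size, so nothing is read from them. Counting genes on or off alike, MC38 and MC38OVA matched in 37 of 39 and CT26 and CT26NYESO1 in 38. The closest unrelated pair, EMT6 and B16F1, matched in 35. Between MC38 and MC38OVA limma called 0 of 33 genes, with 4 at an unadjusted p under 0.05, against 1.31% of all genes called, 1.14% higher and 0.167% lower. CT26 and CT26NYESO1 shared 12, which is 92.3% of the CT26 set and 100% of the CT26NYESO1 set. Again limma called 0, with 1 gene at an unadjusted p under 0.05 (background 2.27%, of which 0.379% higher and 1.89% lower). The test of whether the MC38 and CT26 pairs changed differently called 0 Hox genes as well, with 2 at an unadjusted p under 0.05 (background 2.62%, of which 2.22% higher and 0.396% lower). With backgrounds this low, the counts of 0 are not a feature of the Hox genes. The backgrounds are shares of genes called, so nothing is read from the unadjusted counts.

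B16F1 and B16F10 differed more, sharing 5 genes that were on (71.4% of the B16F1 set and 62.5% of the B16F10 set), with 34 of 39 on or off alike. The unrelated EMT6 and B16F1 also shared 5, which is 71.4% of each set, with 35 alike. In B16F10 limma called 2 of 33 genes higher than in B16F1, against 4.53% of all genes, and 2 lower, against 16.4%. Hoxa11 rose from 0, 0.0217 and 0 TPM to 6.67, 4.85 and 3.84 TPM, by 2.58 ± 0.17 (log2, SE; limma, adjusted p = 2.6e-12). Hoxd13 rose by 1.72 ± 0.18 (1.6e-08). Hoxa9 fell from 12, 4.39 and 6.62 TPM to 1.12, 0.565 and 0.366 TPM, a change of -2.30 ± 0.23 (8.3e-09). Hoxa10, which lies between Hoxa9 and Hoxa11, was not called (19.1, 15.7 and 9.71 TPM in B16F1 against 20, 13.1 and 14.3 TPM in B16F10). The 4 called genes of 33 compare with 20.9% of all genes, so the number is not a feature of the Hox genes. The melanocyte markers were higher in B16F10, as given above. The 10 leukocyte markers summed to a mean of 299 TPM in B16F1 and 560 TPM in B16F10, while Ptprc among them averaged 10.1 and 5.39 TPM. Against the other 9 lines, 1 of the 10 was called higher in B16F10 and 9 lower. Their median log2 difference from the other 9 lines was -1.653 in B16F1 and -2.085 in B16F10, so the larger sum does not describe most of the markers. The part of these cells in the Hox differences was not tested.

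**Figure D5:**
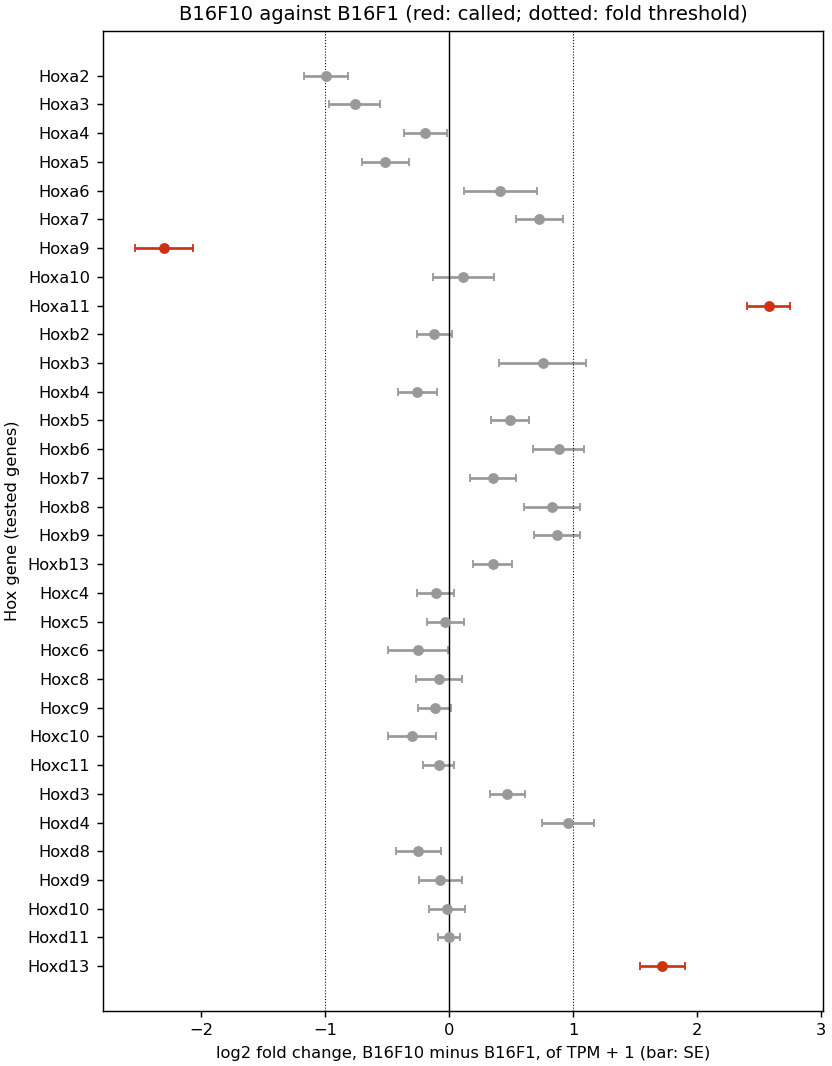
Difference between B16F10 and B16F1 in log2(TPM + 1) for Hox genes that were tested, with SE as bars; red points were called (limma, Benjamini-Hochberg adjusted p under 0.05) and dotted lines mark the fold threshold of 1. Hoxa11 and Hoxd13 lie to the right and Hoxa9 to the left.

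The transcripts of different Hox genes are alike in places, which bears on how far reads can be told apart. The longest identical run between any pair of the 39 was 52 bases (Hoxa6 and Hoxb4), and 2 of 741 pairs shared a run of 50 or more. The group 9 paralogs nonetheless had separate profiles. In LL2 Hoxd9 averaged 12.7 TPM with Hoxa9, Hoxb9 and Hoxc9 at 0.278, 0.552 and 0.147 TPM, and in CT26NYESO1 Hoxa9 averaged 16.2 TPM with Hoxd9 at 0.0669 TPM.

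Partners and regulators of Hox genes were described from lists. All 9 TALE genes, whose homeodomain proteins (Pbx, Meis and Pknox) bind DNA together with Hox proteins, were tested and called over the lines (background 85.5%). Pknox2 passed the filter only through its B16F1 libraries, so nothing is read from that count. Meis1, the partner of Hoxa9 in immature blood cells, was highest in LL2 with 17.7, 15.2 and 15.3 TPM, higher by 2.85 ± 0.14 than the mean of the others (log2, SE; limma, adjusted p = 1.6e-15). It was at 0.0783, 0.0997 and 0.0445 TPM in CMS5a and at 0.213 TPM or less in the CT26 lines. LL2, the line with the most Meis1, had Hoxa9 near 0, and CMS5a, with the highest Hoxa9 mean, had Meis1 near 0. Not all lines split this way, since MC38, MC38OVA and B16F1 had Hoxa9 on with Meis1 at 3.77, 3.60 and 2.89 TPM. EMT6 and B16F10 had Meis1 at 6.01 and 1.45 TPM with Hoxa9 not on. Renca and the CT26 lines had Hoxa9 on with Meis1 means of at most 0.344 TPM. Meis2 was at 0.299, 0.278 and 0.288 TPM in Renca and averaged between 9.38 and 29.9 TPM in every other line, a difference for Renca of -3.56 ± 0.22 (limma, adjusted p = 9.8e-14). The line with the highest Hox sum therefore had low Meis1 and the lowest Meis2. Pknox2 averaged 12.9 TPM in B16F1 and 0.332 TPM in B16F10.

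Of the 6 caudal and ParaHox genes, upstream or sister genes of the Hox clusters, 1 passed the filter. This was Pdx1, a pancreas and duodenum gene, with 5.32, 3.85 and 4.90 TPM in CT26 and 2.93, 2.04 and 2.49 TPM in CT26NYESO1, against at most 0.0454 TPM in any other library. Gsx1 and Gsx2 had line means of 0 throughout. Among noncoding transcripts of the clusters, 11 of 14 names were in the table, and 7 were tested and all called (background 85.5%), from which nothing is read, as for the Hox genes. Hotairm1, a noncoding transcript from the head side of the Hoxa cluster, averaged 2.48 TPM in LL2 and 18.5 TPM in B16F1. Halr1, a transcript beyond the head end of the Hoxa cluster, was highest in EMT6, with 24.9, 10.4 and 12.9 TPM.

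Genes of the chromatin complexes that hold Hox clusters silent or active were expressed throughout. Of 17 Polycomb subunits 12 were called over the lines (70.6%, background 85.5%), of 10 MLL and trithorax genes 9 were called (90.0%), and of 9 tested genes that flank the clusters 7 (77.8%). All 17 Polycomb and all 10 MLL and trithorax genes averaged 1 TPM or more in every line. Cbx7, a Polycomb subunit, was lower in B16F10 by -2.87 ± 0.18 (limma, adjusted p = 2.7e-13) and in CMS5a by -1.23 ± 0.18 (3.2e-06), and higher in Renca by 1.02 ± 0.18 (2.8e-05) and in MC38 by 1.01 ± 0.18 (6.2e-05).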

How the data were processed

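Bulk mRNA libraries were made with a stranded kit, per the labels' protocols. The authors deposited TPM per gene for 30 libraries; per the submitters' processing notes the tools were Trim Galore 0.6.5, STAR 2.7.3a and StringTie 2.1.2 with build mm10, while annotation and strand settings were not given in the sources used here. Samples were grouped by the line in their titles, 3 libraries each. The 17944 genes that reached 1 TPM in 3 libraries or more were fitted with limma 3.58.1 (R 4.3.3) on log2(TPM + 1) with a variance trend, 10 groups and no covariate, and the scripts were tested on simulated data. TPM keep no depth, so no counting intervals are given, and p-values measure the spread between libraries, which may be technical. Hox genes were accounted for in full; those on in a line, called, or nearest 1 TPM were named. Members, lists and markers (leukocyte, fibroblast, endothelial, epithelial, melanocyte, immature blood, muscle and fat) were chosen with earlier results of these data known. Alternatives were scaling, pseudocount, filter, variance trend, fold threshold, replicate block, the level for on, and left-out libraries or lines. Results for 1 gene and 1 set of sequences are not reported here.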

Additional observations from a re-analysis of the deposited data

How the results depend on the processing

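Of 145 calls for single Hox genes, 123 held under every alternative run, 22 were lost under at least 1 and 0 changed direction. The B16F10 against B16F1 count of 4 became 8 under median-ratio scaling, 17 with a pseudocount of 0.1 and 14 without a fold threshold. It ranged from 4 to 8 with libraries left out, the 8 arising without replicate 2 of all lines. Higher calls over the lines (68) became 104 with a pseudocount of 0.1 and 110 without a fold threshold, and lower calls (73) became 156 without one. With libraries left out they ranged from 66 to 69 and from 70 to 74. Without both B16 lines among the lines compared, an alternative chosen after seeing the data, there were 56 higher and 79 lower. Combinations on (163) became 68 at 5 TPM and 192 at 0.5 TPM, and ranged from 167 to 170 without a replicate. Genes on (33) became 23 at 5 TPM. Some of these shifts follow from the rules. A lower pseudocount widens differences of low genes, and leaving out the fold threshold can only add calls. A lower level for on, or fewer libraries that must reach it, can only add combinations, and a higher level can only remove them. Other causes were not tested.

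Replicate numbers recur in every line, but libraries with the same number did not deviate together: 46 of 135 pairs had r over 0.1, the median r was 0.00476 and 10 of 30 libraries correlated best with their own number. With the replicate block the counts were 33, 68, 73, 0, 0, 4 and 0, the same as without it. Depth is unknown from TPM, so a gene listed at 0 may be under the detection limit.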

Other observations

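Of 13 other transcription factors that mark body regions, 12 passed the filter and all 12 were called over the lines by limma (background 85.5%); a gene that passes only through lines where it is high had to differ, so nothing is read from that count. Tbx4, a hindlimb and lung gene, averaged 16.1 TPM in B16F10, 3.06 TPM in LL2 and 0.616 TPM in B16F1, a difference of 3.43 ± 0.16 between the B16 lines (log2, SE; limma, adjusted p = 8.4e-16). Emx2, a urogenital and forebrain gene, averaged 11.9 TPM in Renca, 5.54 TPM in CMS5a and 3.77 TPM in MC38. En1, a gene of the midbrain and the belly side of the limb, averaged 10.6 TPM in CMS5a, 5.10 TPM in MC38 and 3.75 TPM in MC38OVA. Pitx1, which sets hindlimb identity, averaged 3.16 TPM in MC38 and 2.09 TPM in MC38OVA and at most 0.0559 TPM in any other line.

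Markers of muscle and fat were present unevenly: 3 of 6 passed the filter and 1 was called over the lines (background 85.5%), and the summed level ranged from 8.56 to 193 TPM in the 3 B16F1 libraries.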
